A study of Mus musculus with 16 samples.

Results

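Mouse embryonic fibroblasts (MEF) were compared with the first, intermediate stage of their induction towards induced pluripotent stem (iPS) cells, which the labels call OKM. The 4 OKM and the 4 MEF arrays were taken by the cell type in their labels, and make up 8 of the 16 arrays of the series. The other arrays, from iPS and embryonic stem cells, entered only the normalization, the estimate of the spread, the detection filter and the choice of probe. Both groups were of strain CD1. MEF grew alone in medium with 10% serum. OKM cells grew on a layer of mitomycin-treated MEF, called feeders, which no longer divide and support the cells grown on them. The medium of the OKM cells held 15% serum and 10 ng/ml of leukaemia inhibitory factor (LIF), a cytokine that keeps mouse pluripotent cells undifferentiated. Their medium also held 100 µM of the reducing agent beta-mercaptoethanol, with glutamine, other amino acids and a buffer, none of which the labels name for MEF. The titles mark the OKM arrays 3F. The labels neither spell out OKM nor tell how the factors reached the cells, whether they were still supplied or whether the cells were 1 clone. Step, medium, reducing agent, LIF and RNA from the feeders therefore cannot be told apart. In such bulk samples fewer cells of a type and less RNA per cell cannot be told apart either, and the p-values measure the spread between dishes. Of 16590 genes on the array, 9455 passed the filter on detection and were tested.

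The loss of matrix and contractile genes and the arrival of early pluripotency genes are the well known side of this step. A fibroblast also makes lipids, folds and degrades proteins, handles oxidants, answers growth factors and holds its neighbours. Many of these functions are run by a few transcription factors that read the state of the cell. SREBP factors switch on sterol synthesis when membrane cholesterol is low, ATF4 switches on stress and amino acid genes when translation is curbed, ATF6 and XBP1 serve the endoplasmic reticulum (ER) under folding load, and YAP with TEAD partners answers to stretch and cell density.

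The 8 arrays had median raw intensities of 114.7 to 126.7, and 44.9% to 48.7% of probes were detected (detection p-value under 0.01). Across the tested genes, Pearson's r was at least 0.991 within a group and at most 0.833 between the groups (genes are not independent replicates). Levels are given as log2 intensity after background correction and normalization, and a change is the mean of the OKM arrays minus that of the MEF arrays. A gene was called when limma's adjusted p was under 0.05 and the change at least 2-fold. By this rule 1522 genes (16.1% of those tested) were higher in OKM and 1490 (15.8%) lower, 31.9% in either direction. The counts of each gene list below are to be read beside these shares, and a count near them is no trait of its list. In 290 of the higher and 239 of the lower genes the change was 8-fold or more. The OKM and MEF arrays did not overlap in 1518 of the 1522 higher and 1487 of the 1490 lower genes. A lack of overlap, stated below for single genes, is therefore shared by nearly all called genes. Fibroblast and pluripotent cell markers followed the labels. Of 14 feeder and fibroblast markers 13 were tested and all 13 fell, yet 10 of these were still detected on every OKM array. Their summed level on the linear scale was 144566 to 160756 on the MEF and 32270 to 36377 on the OKM arrays, and the share of the feeders in it was not tested. Of 14 pluripotent cell markers 10 rose, and all 14 were undetected on every MEF array. Genes of the classical reprogramming factors did not all move one way. Pou5f1 and Sox2 were at least 57.0-fold and 20.6-fold higher in OKM, while Klf4 was undetected there and at least 9.22-fold lower, and Myc fell by 1.09, a call lost without OKM replicate 2, without background correction, with a larger offset and within the last 8 columns of the deposited table. Whether the probes read supplied copies of these genes was not tested. The median change over all tested genes was 0.02.

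**Figure D1:**
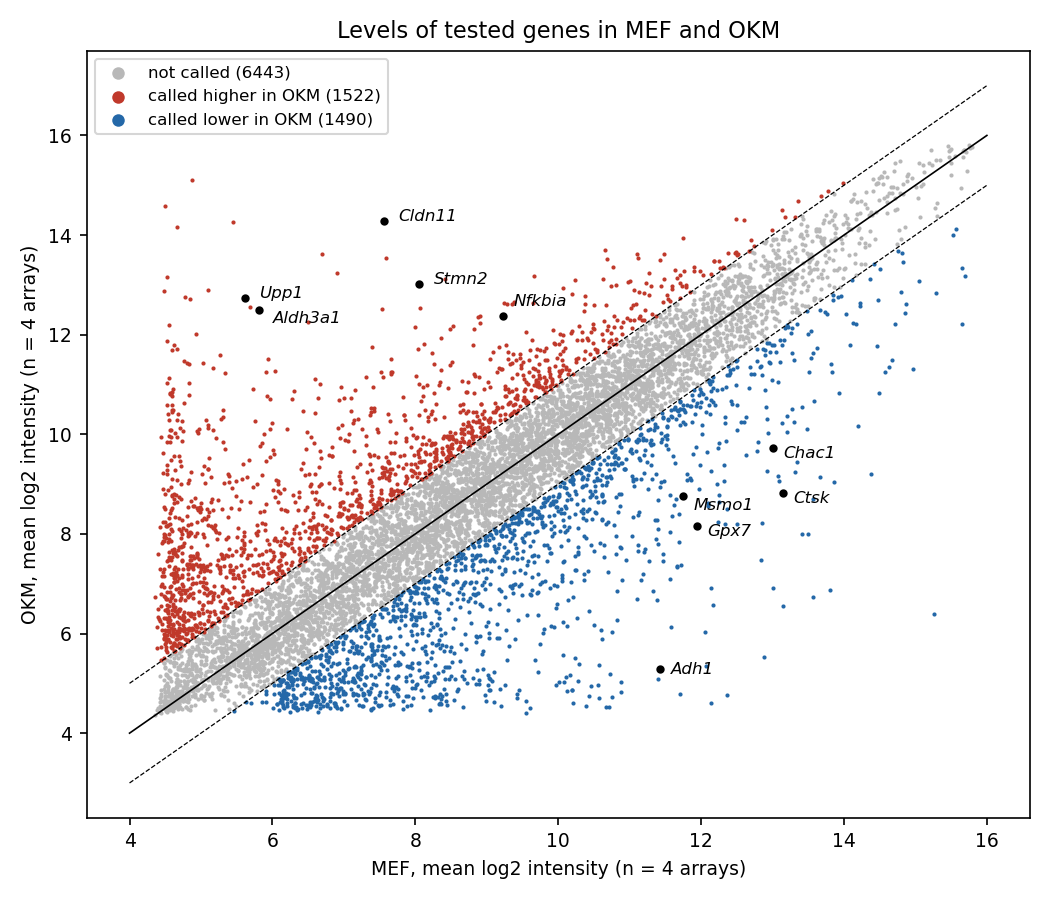
Mean log2 intensity of each of 9455 tested genes in MEF (x axis) and OKM (y axis), over 4 arrays each. Called genes are coloured (1522 higher, 1490 lower), the solid line marks equal levels and the dashed lines a 2-fold difference, and the genes labelled are among those described in the text.

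Genes of cholesterol synthesis fell over most of the pathway. Of 22 genes of cholesterol synthesis and uptake on the array, 21 were tested. 14 fell and 0 rose, against the 15.8% and 16.1% of all tested genes, and their median change was -1.57. Msmo1, a demethylase late in the pathway, measured 11.85, 11.61, 11.77 and 11.74 on the 4 MEF arrays and 8.54, 8.99, 8.91 and 8.64 on the 4 OKM arrays. Every OKM value lay below every MEF value, and Msmo1 fell by 2.97 ± 0.22 (standard error; adjusted p = 1.51e-09). Cyp51, the sterol 14-demethylase, measured 11.71, 11.81, 11.90 and 11.81 in MEF and 9.15, 9.18, 9.10 and 9.41 in OKM. The groups were again apart, with a fall of 2.60 (adjusted p = 4.27e-10). Insig1, which holds SREBP in the ER when sterols are plentiful and is itself an SREBP target, fell by 2.48 ± 0.16. The enzymes Nsdhl, Sqle and Lss fell by 2.30, 2.28 and 2.22, and Hmgcs1, an early step, fell by 1.64 from a high level of 14.22 ± 0.06 (SD, n = 4). The genes of the SREBP factors themselves, Srebf1 and Srebf2, changed by -0.78 and -0.35 and were not called.

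Fatty acid genes fell in part. Of 22 genes of fatty acid synthesis, 17 were tested, 7 fell and 0 rose, with a median of -0.47. The desaturases led. Fads1, which makes polyunsaturated fatty acids, measured 13.66, 13.43, 13.59 and 13.48 in MEF and 11.55, 11.63, 11.46 and 11.47 in OKM. No arrays of the groups overlapped, and the fall was 2.01 ± 0.13 (adjusted p = 1.61e-10). Its relatives Fads2 and Fads3 fell by 2.37 and 2.88, and the stearoyl-CoA desaturases Scd1 and Scd2 by 1.44 and 1.53. Acaca and Acly, which supply malonyl-CoA and acetyl-CoA, changed by -0.59 and -0.32 and were not called. Fatty acid oxidation and peroxisome genes had few calls, with 2 of 34 tested members (of 42 on the array) higher, 0 lower and a median of 0.24.

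Stretches of the promoters of the sterol genes are shown here because the falls were shared by most of the pathway. They come from RefSeq (GRCm38.p6), run 5′ to 3′ in the direction of the gene, and end before its start. Capitals mark CCAAT, the CCAAT box bound by NF-Y, in Msmo1 (chr8:64733609-64733758, minus strand) and Cyp51 (chr5:4104702-4104746, minus strand), and the sterol element core TCACNCCAC known for SREBP in Hmgcs1 (chr13:119690184-119690252, plus strand).
Msmo1: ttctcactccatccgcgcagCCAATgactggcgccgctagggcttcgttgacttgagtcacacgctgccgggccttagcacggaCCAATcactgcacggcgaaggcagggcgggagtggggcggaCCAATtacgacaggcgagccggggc
Cyp51: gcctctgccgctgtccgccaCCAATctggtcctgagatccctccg
Hmgcs1: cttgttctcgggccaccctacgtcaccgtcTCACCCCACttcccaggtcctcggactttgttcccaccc
Both motifs were searched on both strands of the 250 bases before the start. Neither contains the other, and a gene counted when any of its listed promoters held the motif. The CCAAT box lay before 16 of the 18 tested cholesterol genes with a promoter in the table, and before 40.9% of all 7641 tested genes with one. Of the 16, 10 fell and 6 were not called. The list has 7 genes with a promoter that were not called, so the box is common among these as well. The sterol element core lay before 1 of the 18 and before 1.23% of the 7641. A match is a description of these letters, and its absence from this window says nothing about the factor.

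Lipid uptake and lipid signalling genes also leaned downwards. Of 34 genes of lipid uptake, storage and lipoproteins, 24 were tested, 9 fell and 2 rose. Ch25h, which makes 25-hydroxycholesterol, fell by 3.46 ± 0.38, and Fabp3, a fatty acid carrier of muscle and heart, by 2.99. Pparg, the master regulator of fat cells, went from 7.87 ± 0.05 in MEF to below detection in OKM, at least 4.64-fold lower. Where no probe of a gene was detected in a group, the group was given, here and below, the lowest signal that passed detection on each array, so that such a fold is a lower bound. Apoc1, an apolipoprotein, rose at least 4.33-fold. Of 36 eicosanoid and phospholipase genes only 19 were tested, with 7 lower and 2 higher. Lpar1, a receptor of lysophosphatidic acid, fell at least 5.65-fold, while Ephx2, the soluble epoxide hydrolase, rose by 2.18.

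**Figure D2:**
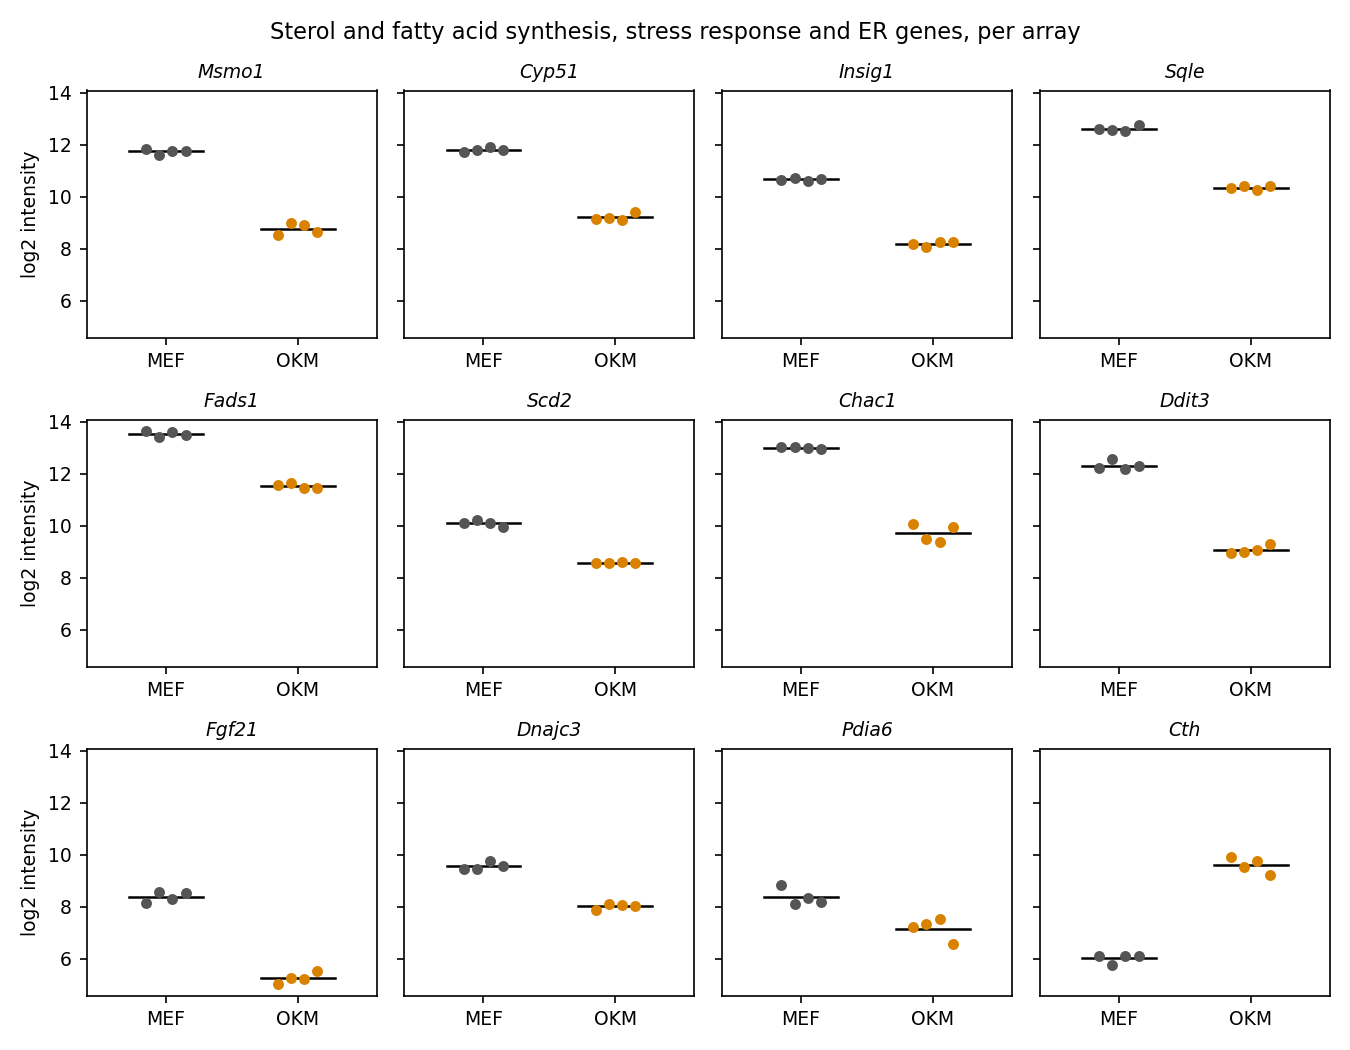
Log2 intensity on each of the 4 MEF and 4 OKM arrays for 12 genes of sterol and fatty acid synthesis, the integrated stress response and the ER. Points are arrays and bars are group means. In 11 of the 12 genes every OKM array lies below every MEF array, as for Msmo1, which fell by 2.97, while for Cth every OKM array lies above. Such separation held for nearly all called genes and is not particular to these 12.

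Several targets of the integrated stress response fell, while enzymes of amino acid synthesis in the same list were not called or rose. Of 25 genes of this response and of serine synthesis, 24 were tested, 9 fell and 3 rose, with a median of -0.39. Chac1, a glutathione-degrading enzyme and a sensitive ATF4 target, measured 13.04, 13.04, 12.98 and 12.94 in MEF and 10.08, 9.48, 9.38 and 9.96 in OKM. All OKM arrays were lower, and Chac1 fell by 3.27 ± 0.38 (adjusted p = 4.91e-07). Ddit3, the stress factor CHOP, fell by 3.24 ± 0.17. Fgf21, a hormone released under metabolic stress, measured 8.13, 8.56, 8.31 and 8.54 in MEF and 5.01, 5.24, 5.22 and 5.54 in OKM, where no array detected it, and was at least 6.64-fold lower. Atf5, Trib3 and Vldlr fell by 1.99, 1.31 and 1.31. Atf4 itself, whose control is known to be mainly translational, fell by 1.23 (adjusted p = 0.00572), a call lost without background correction and with a larger offset. Asns, the asparagine synthetase, changed by 0.05, and the serine synthesis enzymes Phgdh and Psat1 by 0.02 and 0.56, none of them called. Cth, the last enzyme from methionine to cysteine, went the other way, from 6.11, 5.77, 6.11 and 6.10 in MEF to 9.90, 9.54, 9.75 and 9.21 in OKM. These arrays did not overlap either, and Cth rose by 3.58 ± 0.24 (adjusted p = 3.87e-10).

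Among ER folding genes the falls were small and the rises larger. Of 30 ER chaperone and unfolded protein response genes, 24 were tested, 7 fell and 2 rose, with a median of -0.51. Dnajb9 and Dnajc3, co-chaperones of the main ER chaperone, fell by 1.75 and 1.53, and Pdia5, a disulphide isomerase, by 1.39. Pdia6, another isomerase, fell by 1.19 ± 0.22, a call lost without OKM replicate 4 and without background correction. The members that were not called changed by -0.92 (P4hb) to 0.23 (Hyou1). Ero1b, the disulphide oxidase best known from insulin-making cells, rose by 2.85 ± 0.11. The other rise was that of Mzb1, a partner of ER chaperones in antibody-making cells, which measured 4.88, 4.76, 4.72 and 5.16 in MEF and 15.13, 15.18, 15.07 and 15.06 in OKM. It was undetected in MEF and at least 654-fold higher in OKM. Of 18 tested aminoacyl-tRNA synthetases 1 rose and 1 fell, Aars by 1.54.

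Promoter stretches of 4 of these stress genes show the elements through which such genes are known to be read. Capitals mark the ATF4 composite element TGATGNAA, found on the opposite strand in Chac1 (chr2:119351019-119351086, plus strand) and Fgf21 (chr7:45615592-45615659, minus strand), and the ER stress element, CCAAT followed by CCACG after 9 bases, known for ATF6 with NF-Y, in Dnajc3 (chr14:118937807-118937865, plus strand) and Pdia6 (chr12:17266471-17266529, plus strand).
Chac1: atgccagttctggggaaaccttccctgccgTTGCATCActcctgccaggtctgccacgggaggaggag
Fgf21: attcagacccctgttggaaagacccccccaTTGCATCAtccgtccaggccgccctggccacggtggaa
Dnajc3: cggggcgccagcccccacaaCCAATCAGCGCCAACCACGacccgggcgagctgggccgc
Pdia6: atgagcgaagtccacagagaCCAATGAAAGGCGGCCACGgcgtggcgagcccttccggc
Both elements were searched on both strands, and each ER stress element contains a CCAAT box. The ATF4 composite element lay before 6 of 23 tested genes of the stress response list and before 2.59% of the 7641 tested genes. Of the 6, Chac1, Fgf21 and Vldlr fell, while Asns, Atf3 and Nupr1 were not called. The ER stress element lay before 8 of 21 tested ER genes and before 0.144% of the 7641. Of the 8, Dnajc3 and Pdia6 fell and Ero1b rose, and 5 were not called.

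Most tested lysosomal genes had a lower level in OKM. Of 45 lysosomal genes, 39 were tested, 13 fell, 2 rose and 33 had a change below 0, with a median of -0.88. Ctsk, a collagen-degrading cathepsin, measured 13.17, 13.01, 13.25 and 13.13 in MEF and 8.72, 8.71, 9.02 and 8.86 in OKM. The groups did not overlap, and Ctsk fell by 4.32 ± 0.28 (adjusted p = 1.87e-10). Arsb, Hexa and Asah1, hydrolases of glycosaminoglycans, gangliosides and ceramide, fell by 2.07, 1.93 and 1.89. The sialidase Neu1 and the cathepsin Ctsl rose by 1.53 and 1.45. The 11 tested macrophage markers, of a cell type rich in lysosomes, summed to 21922 to 23413 on the linear scale on the MEF arrays and to 13116 to 15178 on the OKM arrays. Laptm5, the 1 of them that rose, made up most of the OKM sum. Without it, a choice made after seeing the data, the other 10 summed to 16591 to 17632 on the MEF and to 1121 to 1568 on the OKM arrays. The part of such cells in the lysosomal falls was not tested. Autophagy genes had few calls, with 2 of 20 tested members lower (Ulk2 fell by 1.89) and 0 higher.

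Several basic machines had few called members, beside 31.9% of all tested genes. Counts without background correction, which removes the brightness of probes without a target and without which dim genes span a narrower range, are given here and below where a count of 3 or more differs by more than 1.5 times. Of 37 tested proteasome subunits 1 rose and 0 fell, with a median of 0.16. Of 70 tested proteins of the mitochondrial ribosome 4 rose (1 without background correction), with a median of 0.32. Of 73 tested respiratory chain and ATP synthase genes 4 rose and 1 fell. Of the 5 members that moved in the chain, 4 were tissue forms of cytochrome c oxidase subunits. Cox6a2, the heart and muscle form, fell at least 10.9-fold, and Cox6b2, known from testis, rose by 2.17. Of 47 tested splicing factors and hnRNPs 3 rose and 3 fell. The largest of these changes were those of Celf2, which fell by 3.40, and Snrpn, an imprinted gene best known from brain, which rose by 2.59. Of 34 tested ribosome biogenesis genes 3 rose (1 without background correction) and 1 fell, Pes1 by 2.29. Of 26 tested heat shock proteins and chaperonins 1 rose and 3 fell. The falls were of small heat shock proteins of muscle, among them Cryab (2.39) and Hspb6 (1.65), and Hspb8, of the same family, rose by 2.15.

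Nucleotide synthesis and salvage leaned upwards. All 39 genes on the array were tested, 12 rose and 1 fell, with a median of 0.68. Upp1, the uridine phosphorylase that salvages pyrimidines, measured 5.55, 5.62, 5.77 and 5.52 in MEF and 12.65, 12.77, 12.81 and 12.69 in OKM. It was detected on 1 of 4 MEF arrays and rose by 7.11 ± 0.10 (adjusted p = 1.97e-19). Dctpp1, which cleans the dCTP pool of modified forms, rose by 2.35, and Umps and Prps1, enzymes of new pyrimidine and purine synthesis, rose by 2.08 and 2.07. Xdh, the enzyme that ends purine breakdown in uric acid, fell by 1.77, a call lost without background correction. Among polyamine, arginine and creatine genes, 18 of 25 were tested, 4 rose and 2 fell, 33.3% beside 31.9% of all tested genes. Ckmt1, the mitochondrial creatine kinase, rose at least 7.76-fold and Arg1, arginase, at least 3.93-fold, while Gamt, which makes creatine, fell by 2.96 ± 0.14.

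Carriers and channels included rises and falls. Of 27 amino acid transporters 21 were tested, with 4 higher and 4 lower, shares near the 16.1% and 15.8% of all tested genes. Slc38a5, a carrier of glutamine and other neutral amino acids, went from undetected in MEF to 14.61, 14.60, 14.50 and 14.60 on the OKM arrays, at least 454-fold higher. Slc1a3, a glutamate carrier known from astrocytes, measured 10.18, 10.26, 10.28 and 10.46 in MEF and 5.17, 5.74, 5.44 and 5.19 in OKM. No OKM array detected it, which makes it at least 24.9-fold lower, while Slc7a3, a carrier of arginine and lysine, rose by 2.85 ± 0.12. Of 188 other solute carriers 100 were tested, 20 rose and 27 fell. The glucose transporter Slc2a3, known from neurons and early embryos, rose by 3.40 and the nucleoside carrier Slc28a1 at least 8.20-fold. Slc24a3, a sodium and calcium exchanger detected on 1 of 4 OKM arrays, fell by 4.72, and Slc5a7, the choline carrier of neurons, at least 10.3-fold. Only 53 of 166 ion channel and gap junction genes were tested, with 19 higher and 16 lower (10 and 8 without background correction), and the other members were detected on too few arrays. Gjb2, connexin 26, was at least 13.9-fold lower and Kcnab1, a potassium channel subunit, at least 16.7-fold lower. Clic3 rose at least 8.25-fold, and Itpr2, a calcium release channel of the ER, rose by 2.94.

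Redox and detoxification genes changed in both directions. Of 48 genes of glutathione, thioredoxin and NRF2 targets, 44 were tested, 13 rose and 7 fell, with a median of 0.49. The rises are 29.5%, and the falls 15.9%, near the 15.8% of all tested genes. Gpx2, the glutathione peroxidase of the gut, measured 4.49, 4.87, 4.56 and 4.57 in MEF and 8.53, 8.97, 8.76 and 8.94 in OKM. It was undetected in MEF and at least 8.24-fold higher in OKM. Mgst2 and Gsta1, glutathione transferases, rose at least 6.05-fold and 3.56-fold, and Gsta4 rose by 1.85. Gsta and Gstp genes have close relatives that a probe may not separate. Gpx7, a peroxidase of the ER, went the other way, from 11.93, 11.92, 11.81 and 12.10 in MEF to 7.86, 8.34, 8.04 and 8.43 in OKM. Its groups did not overlap, and it fell by 3.77 ± 0.12 (adjusted p = 1.52e-14), as did its relative Gpx8, by 2.59, and the secreted Gpx3, by 2.22.

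Enzymes that oxidize alcohols, aldehydes and foreign compounds included large rises and large falls. Only 42 of 116 such genes were tested, with 9 higher and 9 lower. Aldh3a1, the aldehyde dehydrogenase of the cornea, measured 5.45, 6.09, 5.84 and 5.86 in MEF and 12.33, 12.55, 12.54 and 12.53 in OKM. It was detected on 2 of 4 MEF arrays and rose by 6.68 ± 0.13 (adjusted p = 1.31e-17). Adh1, the classical alcohol dehydrogenase, measured 11.39, 11.57, 11.29 and 11.47 in MEF and 5.45, 5.33, 4.88 and 5.49 in OKM, where no array detected it, and was at least 54.7-fold lower. Nnmt, which consumes methyl groups to methylate nicotinamide, fell by 3.46 ± 0.21, and Cyp1b1 by 3.35. Cyp2b23 rose at least 28.6-fold, although the Cyp2b genes are close copies of each other. Among metallothionein, iron and haem genes, 29 of 38 were tested, 6 rose and 8 fell (3 and 4 without background correction). Lcn2, the siderophore-binding lipocalin, measured 4.56, 4.56, 4.56 and 4.53 in MEF and 10.16, 10.26, 10.30 and 10.46 in OKM, at least 23.3-fold higher. Slc40a1, the iron exporter ferroportin, fell by 3.18, and Mt1, a metallothionein, by 2.44 from the very high level of 15.28 ± 0.06.

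Genes known to rise in low oxygen were higher in OKM more often than lower. Of 33 such genes 27 were tested, 10 rose and 4 fell, with a median of 0.90. The rises are 37.0%, beside 16.1% of all tested genes, and the falls 14.8%, near the 15.8% of all tested genes. Egln3, a prolyl hydroxylase that marks HIF proteins for destruction, measured 6.12, 5.99, 6.04 and 5.80 in MEF and 10.56, 9.84, 10.58 and 9.95 in OKM. All OKM arrays were higher, by 4.25 ± 0.22 (adjusted p = 8.75e-12). Aldoc, a glycolytic aldolase of brain, rose by 3.12, Car12, a carbonic anhydrase, at least 6.75-fold and Epas1, the factor HIF2A, at least 3.06-fold. The glucose transporter Slc2a1 rose by 1.81. Lox and P4ha2, which cross-link and hydroxylate collagen, fell by 3.65 and 1.59. Vegfa, the best known target of the response, changed by -0.12 and was not called.

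**Figure D3:**
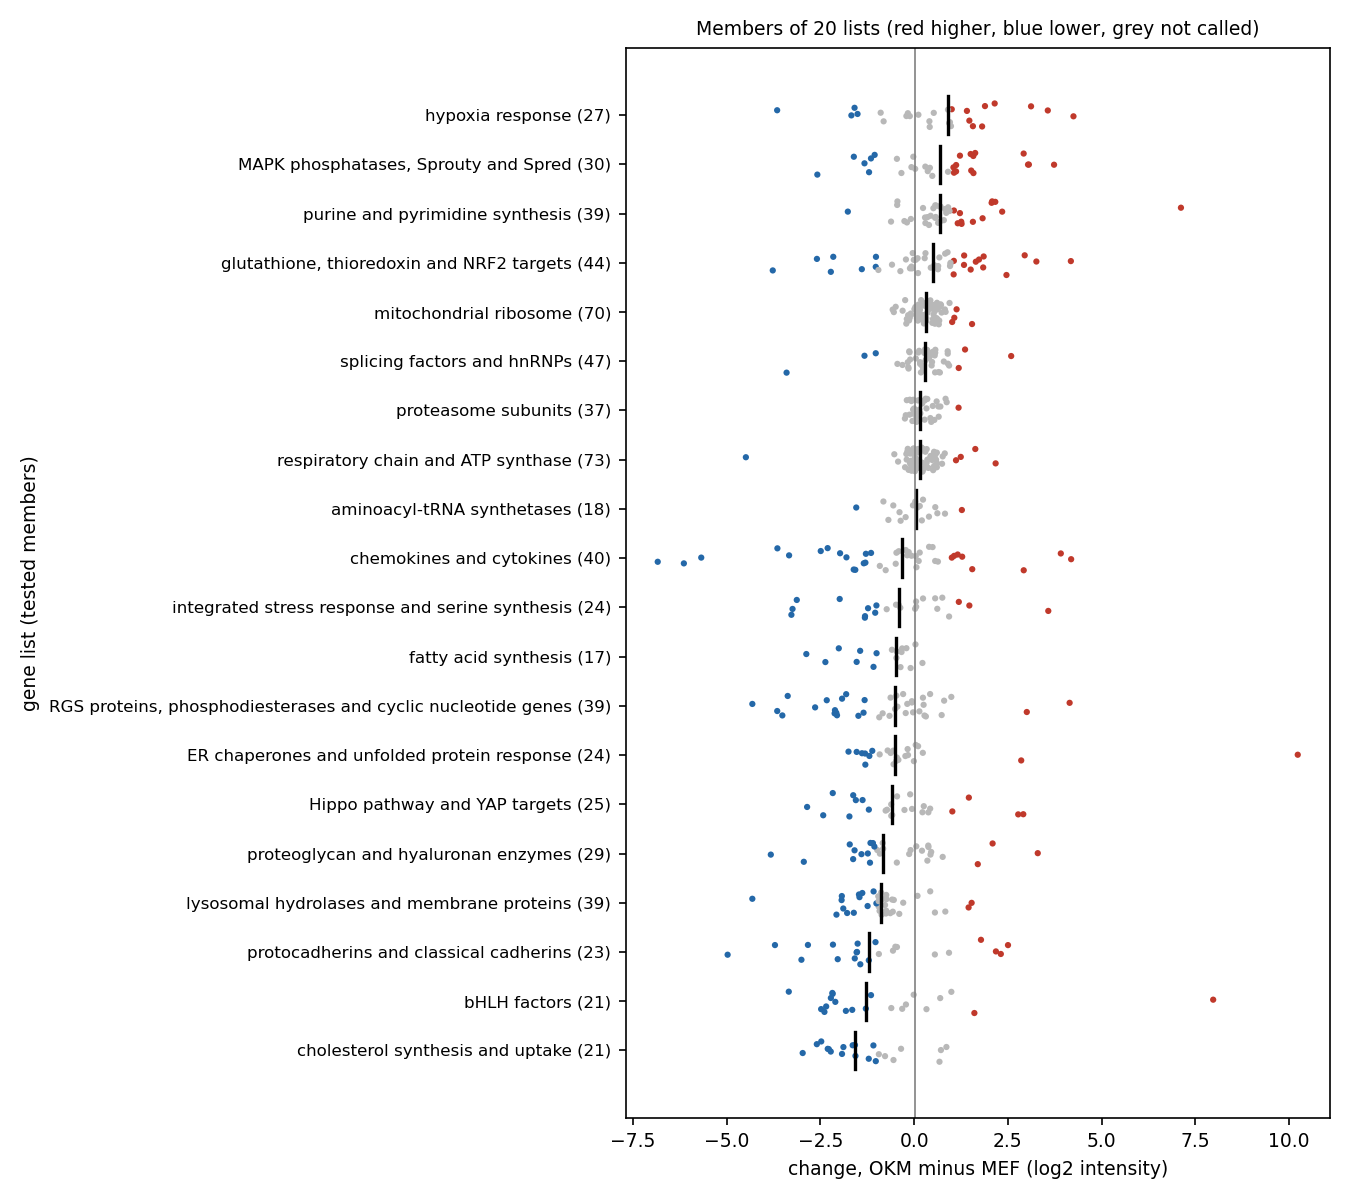
Change (log2, OKM minus MEF) of every tested member of 20 gene lists described in the text. Points are genes, coloured when called, and vertical ticks are the medians, from -1.57 for cholesterol synthesis to 0.90 for the hypoxia response. The grey line is the median of all tested genes, 0.02.

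Genes of MAPK phosphatases and of feedback on growth factor signals, only some of which growth factors switch on through ERK, rose in many members. Of 39 MAPK phosphatase, Sprouty, Spred and ETV genes 30 were tested, 14 rose and 6 fell, with a median of 0.69. Dusp14 measured 6.78, 7.19, 7.17 and 6.87 in MEF and 10.63, 10.52, 11.02 and 10.77 in OKM. The groups were apart by 3.73 ± 0.12 (adjusted p = 1.87e-14). Etv4 and Etv5, transcription factors downstream of FGF signals, rose by 3.06 and 3.04, and Dusp4, an ERK phosphatase of the nucleus, by 2.92. Dusp6, the cytoplasmic ERK phosphatase, changed by 0.42 and was not called. Dusp23 was at least 4.83-fold lower. Without background correction 7 members were called higher and 3 lower.

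Notch genes moved on both sides. Of 34 genes 22 were tested, 6 rose (27.3%) and 3 fell (13.6%, near the 15.8% of all tested genes). Nrarp, a target and feedback inhibitor of Notch, measured 5.67, 5.93, 6.03 and 6.24 in MEF and 10.67, 10.65, 10.85 and 10.66 in OKM. No arrays overlapped, and it rose by 4.74 ± 0.12 (adjusted p = 5.98e-16). The ligand Jag2 rose at least 7.41-fold and Dtx4, which acts on Notch receptors, by 2.61. Dlk1, a ligand-like inhibitor high in fetal tissue and silent in many iPS lines, measured 10.61, 10.66, 10.58 and 10.41 in MEF and 5.75, 5.32, 5.47 and 4.96 in OKM. It was detected on 1 of 4 OKM arrays and fell by 5.19 ± 0.15. Hes1, a direct target of Notch receptors, changed by -0.23 and was not called. In the Hedgehog pathway only 8 of 19 genes were tested, 4 fell and 1 rose, with a median of -0.88. Hhat, which adds palmitate to the ligand, fell by 1.84, and Scube3, known to help ligand release, rose at least 5.40-fold.

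Several targets of YAP and TEAD fell while other members of the Hippo list rose. Of 32 genes 25 were tested, 8 fell and 4 rose (2 without background correction). The falls are 32%, and the rises 16%, near the 16.1% of all tested genes. Ankrd1, a YAP target of stretched cells, measured 9.56, 9.61, 9.60 and 9.72 in MEF and 6.57, 6.74, 6.90 and 6.85 in OKM. Its OKM arrays were all lower, by 2.85 ± 0.14 (adjusted p = 2.7e-12). Crim1 was at least 2.91-fold lower, and the matricellular targets Ccn1 and Ccn2 fell by 1.63 and 1.38. Nt5e, the ecto-nucleotidase CD73, and Wwc1, the upstream regulator KIBRA, rose by 2.91 and 2.77. Yap1 itself changed by 0.22 and was not called. Stretches of the promoters of Ankrd1 (chr19:36119942-36120074, minus strand) and Crim1 (chr17:78200149-78200194, plus strand) are shown because both genes are targets that fell, with the TEAD site GGAATG in capitals.
Ankrd1: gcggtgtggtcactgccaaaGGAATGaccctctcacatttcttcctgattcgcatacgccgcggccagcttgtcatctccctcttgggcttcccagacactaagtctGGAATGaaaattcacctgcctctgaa
Crim1: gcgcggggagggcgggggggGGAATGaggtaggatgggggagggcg
The TEAD site, on either strand, lay before 15 of 20 tested genes of this list with a promoter and before 13% of the 7641 tested genes. The 5 genes of the list that fell and have a promoter in the table all hold it and the 3 that rose do not, but so do 10 of the 12 that were not called. It contains none of the other motifs.

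Many genes that set cyclic nucleotide and G protein signals fell. Of 68 RGS, phosphodiesterase and cyclase genes 39 were tested, 15 fell and 2 rose. Rgs4, which shortens G protein signals, measured 11.69, 11.73, 11.63 and 11.61 in MEF and 7.58, 7.46, 7.16 and 7.21 in OKM. The groups did not overlap, and Rgs4 fell by 4.32 ± 0.15 (adjusted p = 3.56e-14). Adcy4, an adenylate cyclase, was at least 9.77-fold lower and Gucy1a1, a subunit of the nitric oxide receptor, at least 8.0-fold lower. Pde1b, a calcium-activated phosphodiesterase, rose by 4.15 ± 0.15.

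Secreted immune signals changed in both directions, and markers of macrophages fell. Of 65 chemokine and cytokine genes 40 were tested, 15 fell and 8 rose (9 and 4 without background correction). Cxcl15 was at least 32.3-fold lower in OKM, and the macrophage chemokines Ccl4 and Ccl3 at least 27.3-fold and 6.86-fold lower. Il10, an inhibitory cytokine, measured 4.57, 4.60, 4.49 and 4.73 in MEF and 8.58, 8.89, 8.57 and 9.09 in OKM. It was undetected in MEF and at least 8.16-fold higher. Tnfsf9, the ligand of 4-1BB, and Il34, a ligand of the macrophage growth factor receptor, rose by 3.91 and 2.92. Of 48 cytokine receptors 32 were tested, 7 fell (2 without background correction) and 4 rose. These are 34.4% in either direction, near the 31.9% of all tested genes. Il17rb, an interleukin-17 receptor chain, rose at least 5.92-fold and Il27ra by 2.79, while Lifr, the receptor of the added LIF, changed by 0.58 and was not called. Il6st, the chain it signals with, was at least 1.56-fold lower, a call lost without background correction, with a larger offset and in the authors' normalized table. Of 14 macrophage markers 11 were tested, 10 fell and Laptm5 rose, a call lost with cyclic loess normalization and with median scaling. Of these, 6 (Adgre1, C1qa, C1qb, C1qc, Cd52 and Tyrobp) were undetected on all OKM arrays, and 4 were detected on each of them. The part of such cells in the falls of immune genes was not tested.

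Complement genes, inflammatory sensors and protease inhibitors had members of both directions. Of 41 complement and coagulation genes only 21 were tested, 9 fell and 7 rose. The subunit genes C1qa, C1qb and C1qc of the first component ended below detection, C1qb at least 33.3-fold lower, and C2 fell by 3.52. Clu, clusterin, and Cd59a, which shields cells from lysis, rose by 3.40 and 2.19. Of 49 genes of innate sensing and NF-κB, 34 were tested, 9 fell and 8 rose. Those lower included the receptors Tlr13 (at least 3.58-fold) and Tlr4 (at least 4.06-fold). Nfkbia, the inhibitor IκBα and a target of NF-κB, measured 9.15, 9.26, 9.25 and 9.25 in MEF and 12.35, 12.46, 12.34 and 12.34 in OKM. Its arrays were tightly grouped and apart by 3.14 ± 0.13 (adjusted p = 6.08e-13). The inhibitory kinase Irak3 rose by 3.49, and the DNA sensor Aim2 at least 12.2-fold. Of 94 protease inhibitor genes 28 were tested, 10 rose and 7 fell. Serpinb2 rose at least 18.4-fold and Serpina3n by 3.27, and Timp2, an inhibitor of matrix metalloproteases, fell by 3.10. S100a8 and S100a9, which pair as calprotectin, rose at least 13.2-fold and 6.72-fold.

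Among transcription factors outside the Hox and pluripotency sets, bHLH factors fell more often than they rose. Of 40 bHLH genes 21 were tested, 12 fell (7 without background correction) and 2 rose, with a median of -1.29. Those that fell included Tcf4 (2.48) and the mesenchymal Twist1 (2.39), values being falls in log2 intensity. Ebf1, an olfactory and B cell factor of a separate family that the list also counts, fell by 2.10. Id4, an inhibitor of bHLH factors, was at least 4.51-fold lower while its relative Id1 rose by 1.61. Of 142 forkhead, SOX, GATA, T-box and homeobox genes 56 were tested, 16 rose and 13 fell (7 and 6 without background correction). Irx1, Prrx1 and Gata6 fell by 3.17, 2.73 and 2.58. Foxq1 rose at least 4.40-fold and Barx1, a factor of stomach and jaw, rose by 2.87. Tfap2c, a factor of trophoblast and germ cells, measured 4.83, 4.75, 5.01 and 4.75 in MEF and 11.35, 11.53, 11.41 and 11.39 in OKM. It went from undetected to at least 50.6-fold higher. Among nuclear receptors, Vdr and Nr2f1 fell by 2.25 and 2.25, in a list with 21 of 44 members tested, 3 lower and 1 higher.

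**Figure D4:**
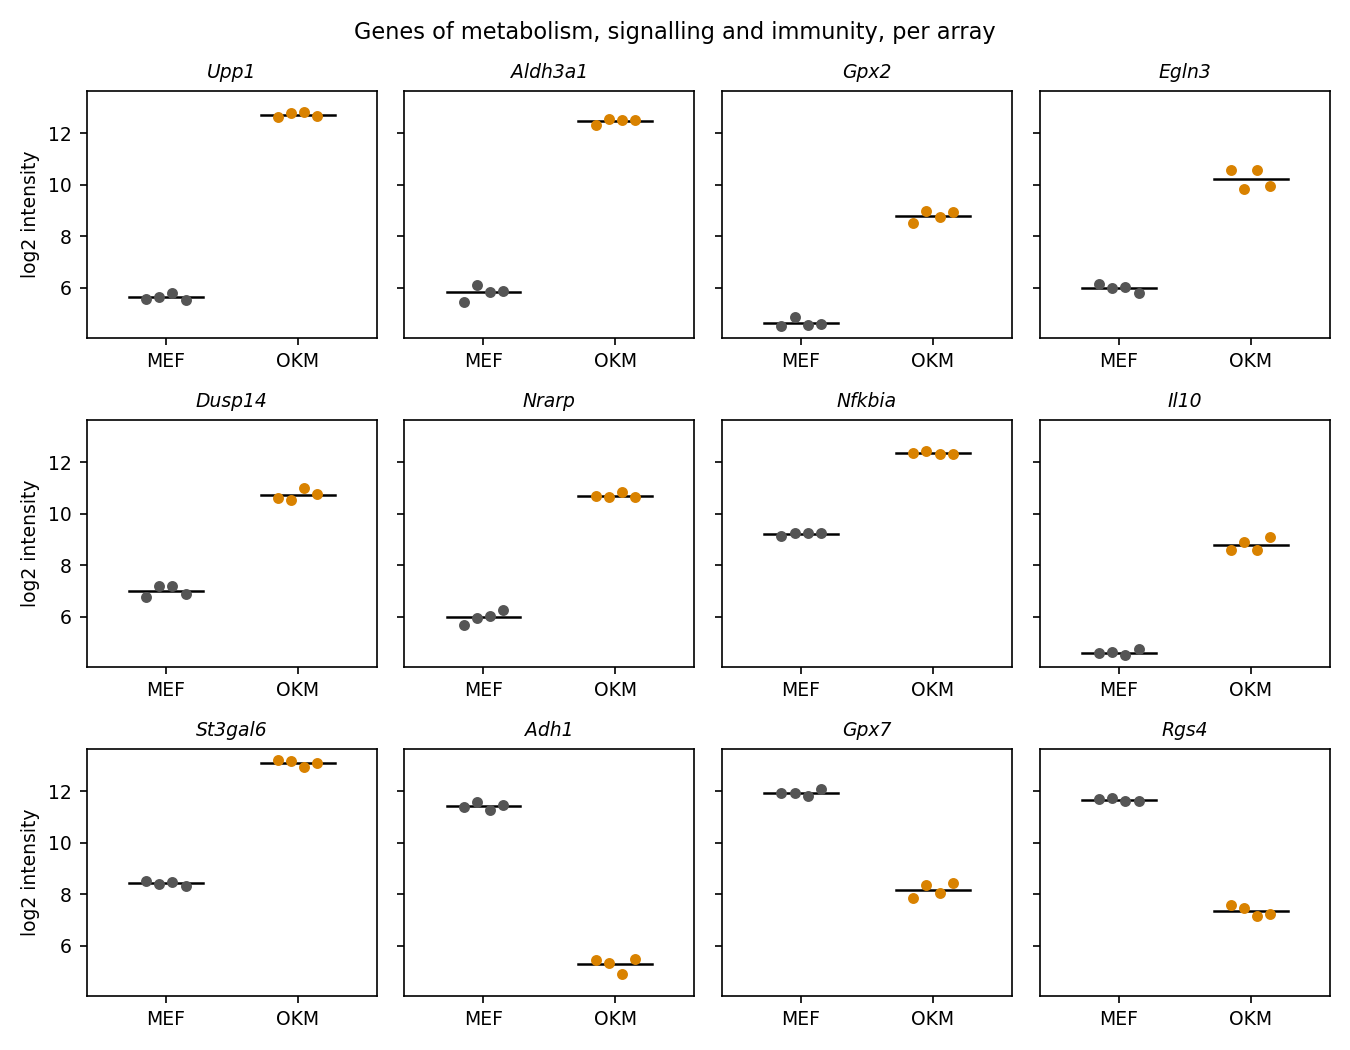
Log2 intensity on each of the 4 MEF and 4 OKM arrays for 12 genes of metabolism, signalling and immunity. Points are arrays and bars are group means. Upp1, Aldh3a1, Gpx2, Egln3, Dusp14, Nrarp, Nfkbia, Il10 and St3gal6 lie higher on every OKM array, and Adh1, Gpx7 and Rgs4 lower.

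Families of the cytoskeleton and the cell surface had members of both directions. Gsn, the actin-severing gelsolin, was at least 9.38-fold lower. Avil, advillin, a relative of gelsolin known from sensory neurons, rose by 5.23 ± 0.17. Stmn2, a microtubule regulator of neurons, measured 8.05, 7.98, 8.16 and 8.02 in MEF and 13.20, 12.96, 13.03 and 12.91 in OKM. It rose by 4.97 ± 0.15 (adjusted p = 3.86e-15). Cavin2 and Cav1, coat and core proteins of caveolae, fell by 4.72 and 2.93. Cldn11, a tight junction claudin known from myelin and testis, measured 7.66, 7.45, 7.57 and 7.55 in MEF and 14.43, 14.32, 14.15 and 14.20 in OKM. It was detected in both groups and rose by 6.72 ± 0.11.

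Most tested cadherins were lower. Only 23 of 87 cadherin, protocadherin and plakophilin genes were tested, with 13 lower, 4 higher and a median of -1.21. Cdh3, P-cadherin, measured 10.08, 10.08, 10.13 and 10.13 in MEF and 5.03, 5.06, 5.40 and 5.04 in OKM. It was undetected in OKM and at least 21.9-fold lower. Cdh11, the cadherin of mesenchyme, fell by 2.83, and Pcdh7 at least 8.40-fold. Pkp3 and Celsr2, a plakophilin and a planar polarity cadherin, rose at least 3.84-fold and 2.96-fold. Without background correction 5 members were called lower.

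Enzymes that build sugar chains changed as well. Of 44 proteoglycan and hyaluronan enzymes 29 were tested, 11 fell (7 without background correction) and 3 rose, with a median of -0.83. Csgalnact1, which starts chondroitin chains, and Chst2, a sulphotransferase, fell by 3.82 and 2.94, while Hs3st3a1, which sulphates heparan chains, rose by 3.30 ± 0.10. Csgalnact1 was detected on 2 of 4 OKM arrays. Of 79 other glycosyltransferases 39 were tested, 9 rose (23.1%) and 7 fell (17.9%, near the 15.8% of all tested genes). St3gal6, a sialyltransferase, measured 8.51, 8.40, 8.45 and 8.32 in MEF and 13.23, 13.17, 12.95 and 13.11 in OKM. The groups were far apart, by 4.69 ± 0.13 (adjusted p = 1.64e-15). Galnt18 and Galnt10, which start O-linked chains, fell by 4.50 and 3.10, and Galnt18 was detected on 2 of 4 OKM arrays.

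Secretory granule genes rose and fell. Of 103 Rab and granule secretion genes 74 were tested, 16 rose and 10 fell (5 without background correction). These are 21.6% and 13.5%, near the shares of all tested genes. Scg5, a helper of a prohormone convertase, was undetected in MEF, measured 13.16, 12.92, 12.72 and 12.76 in OKM and was at least 141-fold higher. Pcsk1n, an inhibitor of a prohormone convertase, and Syt16, a synaptotagmin relative, rose at least 7.31-fold and 7.28-fold, and Rab17, a Rab of epithelial cells, at least 3.99-fold. Scg2, secretogranin II, was at least 5.86-fold lower. In the nucleus, 32 of 38 lamina and pore genes were tested, 7 rose and 2 fell, 28.1% beside 31.9% of all tested genes. Nup210, a pore protein with tissue-restricted expression, measured 5.40, 6.18, 6.31 and 5.88 in MEF and 11.46, 11.68, 11.42 and 11.52 in OKM. It rose by 5.58 ± 0.16, far more than any other pore gene tested, the next being Nup43 at 1.61.

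A stricter view counts only genes that went from no detection to full detection. Of 16590 genes on the array, 571 were detected on 4 of 4 OKM arrays and on 0 of 4 MEF arrays by any probe, and 424 the other way round. A further 7055 were detected on all 8 arrays and 7070 on none. Among those gained were Krt17, a keratin of stratified epithelia, at least 69.0-fold, and Fetub, fetuin B of liver, at least 65.8-fold. Other gains were Tph1, which makes serotonin outside the brain, at least 33-fold, Pecam1, a surface molecule of endothelium also found on pluripotent cells, at least 32.4-fold, and Lgals7, a galectin of skin, at least 47.4-fold. Among those lost were Reg1, a secreted lectin of pancreas, at least 37.2-fold, Adamts1, a matrix protease, at least 37.4-fold, and Ednrb, an endothelin receptor, at least 33.7-fold.

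The widest ranges within a group followed the place of the arrays in the deposited table for bright called genes, those with a group mean of at least 8. Replicates 1 and 3 of each group stand in its last 8 columns and replicates 2 and 4 in its first 8. Psg23, a pregnancy-specific glycoprotein gene, measured 10.00, 8.69, 9.55 and 8.45 on the OKM arrays, and Thbd, thrombomodulin, measured 8.75, 7.49, 8.18 and 7.64 on the MEF arrays. In both, replicates 1 and 3 were higher than replicates 2 and 4. Both genes were also called with this place as a block, Psg23 with a rise of 3.32 and Thbd with a fall of 1.83. As each place holds both groups equally, such a block cannot alter the change, only its p-value. Dimmer genes were not all of this kind, as Ltf, lactoferrin, measured 6.23, 6.66, 6.77 and 7.28 on the OKM arrays, lowest in replicate 1. Over all tested genes, too, deviations from the group means followed the place. Between MEF and OKM arrays of the same place they correlated at 0.0079 to 0.55, and between those of different place at -0.55 to -0.12. What the place stands for is not stated in the labels.

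**Figure D5:**
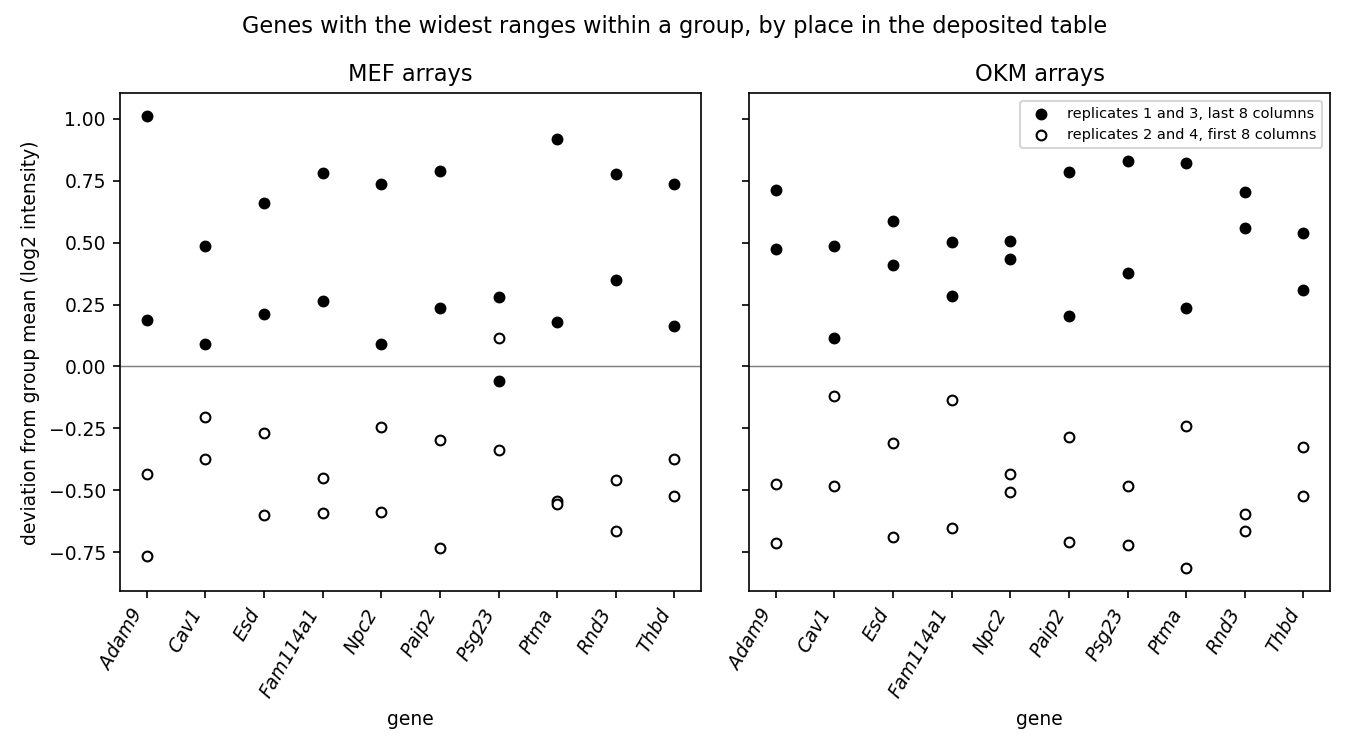
Deviation of each array from its group mean (log2) for 10 called genes, the 6 with the widest ranges over the OKM arrays and the 6 over the MEF arrays among those with a mean of at least 8 in that group (2 genes are in both). Filled points are replicates 1 and 3 (last 8 columns of the deposited table) and open points replicates 2 and 4 (first 8). All filled points lie above all open points for 10 of the 10 genes in OKM and for 9 of them in MEF.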

How the data were processed

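RNA of 16 dishes was hybridised to Illumina mouse arrays of 25697 probes, of which the 4 OKM and 4 MEF arrays were compared. The authors deposited a table of raw bead intensity values that had not been normalized, with a detection p-value per probe and array. A deposited table of normalized intensity values, whose method is not given in the sources used here, served as an alternative. The raw intensity was corrected for background with limma 3.58.1 in R 4.3.3 (normexp with negative control levels inferred from the detection p-values, offset 16), quantile normalized over the 16 arrays and put on the log2 scale. Probes with a detection p under 0.01 on at least 4 of 16 arrays were kept. Each gene was represented by 1 probe, the one with the highest mean over the 16 arrays. Of the probes, 23978 had 1 gene symbol, updated through Entrez identifiers to the RefSeq table of GRCm38.p6, and 1719 had no single symbol and are unnamed here.

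The fit gave each of the 4 groups a mean and all 16 arrays 1 spread (12 residual degrees of freedom). The contrast of OKM minus MEF was tested two-sided with limma's eBayes and Benjamini-Hochberg adjustment over 9455 genes, and a call needed an adjusted p under 0.05 and at least a 2-fold change. The median standard error of a change was 0.128 log2 units, and the number of arrays limits the precision. The comparison and the gene lists were chosen with earlier results of these data known, and lists were described by counts and medians beside all tested genes, with no test of their own. Genes to name were, in each list, at most 3 of the rises and 3 of the falls with the largest changes and no overlap of the groups, the 40 largest changes in each direction over all genes, the 15 largest switches of detection in each direction, and the 6 widest ranges per group. The text names only part of these, and many of the largest changes are not among them. Other members were named after their values were seen, because of their place in a pathway. Counts of several of the lists are not reported here. Alternatives covered normalization, background, filters, probes, blocks, weights, thresholds and leaving out each array.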

Additional observations from a re-analysis of the deposited data

Results flagged for a closer look

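Within each group of 4 arrays, the highest or lowest array was set apart from the other 3 when its gap to the nearest array took up more of the range than Dixon's criterion for 4 values allows. This was checked for the 218 genes named, in both groups, 436 times in all, and 32 (7.34%) were set apart, where chance gives about 1 in 20. Values are log2 intensity of the array that stood apart. MEF replicate 1 was high for Ckmt1 (5.35). MEF replicate 1 was low for Il27ra (7.42) and Nfkbia (9.15). MEF replicate 2 was high for Jag2 (4.88). MEF replicate 2 was low for Adgre1 (6.40), Ccn2 (14.71) and Cth (5.77). MEF replicate 3 was high for Barx1 (6.14). MEF replicate 3 was low for Hs3st3a1 (8.64). MEF replicate 4 was high for S100a8 (4.77). MEF replicate 4 was low for Lcn2 (4.53) and Tyrobp (7.97). OKM replicate 1 was high for Hs3st3a1 (12.35), Slc28a1 (9.09) and Sox2 (10.36). OKM replicate 1 was low for Aldh3a1 (12.33). OKM replicate 2 was high for Asah1 (12.39), Cavin2 (7.05), Nfkbia (12.46) and Twist1 (8.07). OKM replicate 2 was low for C1qc (4.58) and Dusp23 (5.10). OKM replicate 3 was high for Cdh3 (5.40), Nrarp (10.85), Scd2 (8.60) and Serpina3n (12.92). OKM replicate 3 was low for Slc38a5 (14.50). OKM replicate 4 was high for Nsdhl (8.79). OKM replicate 4 was low for Ccn2 (13.33), P4hb (13.77), Pcdh7 (4.61) and Psat1 (12.72). Several of these levels lie below detection, as those of Ckmt1 and Jag2 in MEF, and leaving out the array that stood apart changed no call of its gene.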

How the results depend on the processing

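The counts of called genes kept within 1.5 times of 1522 higher and 1490 lower under all alternatives but those named here. Without background correction 1007 genes were higher and 973 lower, the cut at a 4-fold change left 607 and 572, and the adjusted p alone gave 3449 and 3219. Every kept probe by itself gave 2096 higher and 2130 lower of 13782 probes. Over the other alternatives that keep all arrays, the counts were 1232 to 1533 higher and 1209 to 1555 lower. Leaving out 1 array at a time gave 1512 to 1536 higher and 1474 to 1507 lower. Of the distinct members of the lists other than markers, 287 were higher and 342 lower, 642 and 630 by the adjusted p alone, and 127 and 137 at 4-fold. Leaving out 1 array gave 283 to 289 and 335 to 344. Genes detected on all OKM and no MEF arrays numbered 571, and 576 to 602 with 1 array left out. Those of the opposite kind numbered 424, and 431 to 473. A detection p under 0.05 gave 483 and 333.

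The replicate block gave the same counts of calls, 1522 and 1490. Each block holds both groups equally, so that the estimated changes stay the same and only the p-values could move. The numbers were not taken to pair the dishes, since deviations of same-numbered arrays correlated at 0.0079 to 0.55. Arrays of another number but the same place in the deposited table correlated at 0.069 to 0.41. Among arrays in the first 8 columns, 1507 genes were higher and 1473 lower, and among those in the last 8 columns, 1559 and 1518. Of 201 named genes with a call, 10 lost it under at least 1 of the alternatives that keep both thresholds. With the mean of all kept probes, Ahnak and Srprb turned to a change of 0.10 each, since their probes oppose each other. The median of the respiratory chain list turned from 0.15 to 0.00 with cyclic loess normalization, and that of telomere genes from 0.45 to -0.15 in the authors' normalized table. Microtubule genes had 6 falls, and 3 without OKM replicate 4. Small counts moved as well. Without background correction the rises went from 2 to 1 in the lists of fatty acid oxidation, of eicosanoids and of telomeres, and the falls from 2 to 1 among autophagy, polyamine, lamina and pore genes and trophoblast markers. The single rise among proteasome subunits and the single falls in the nucleotide and cilia lists were lost (0 called). Without 1 array, falls among polyamine genes (without MEF replicate 2) and among lamina and pore genes (without MEF replicate 4) went from 2 to 1. Dim genes limit all counts, since 7070 of 16590 genes were detected on none of the 8 arrays.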

Other observations

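Endothelial and trophoblast markers moved in both directions. Of 13 endothelial markers 10 were tested, 5 rose (3 without background correction) and 2 fell. Tek, a receptor of vessels, was higher by 3.03, and Flt1, a VEGF receptor, and Emcn, endomucin, fell by 2.63 and at least 2.36-fold. Of 16 trophoblast markers 11 were tested, 4 rose (2 without background correction) and 2 fell. Krt8, a keratin of simple epithelia detected on 2 of 4 MEF arrays, rose by 3.82, while another keratin of the list fell by 1.11. Of 15 primitive endoderm markers 9 were tested, 5 fell and 0 rose, among them Col4a1, a basement membrane collagen that fibroblasts also make, by 2.92. Of 15 skeletal muscle markers 8 were tested and 1 fell.

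Of the tested cilia, telomere and clock genes 16.7%, 13.3% and 23.5% were called, beside 31.9% of all tested genes. Of 30 tested genes of cilia 4 rose and 1 fell, and the largest change was that of Rfx4, a factor of brain and testis, which rose at least 4.75-fold. Of 15 tested telomere genes 2 rose, Ctc1, a subunit of the complex that protects chromosome ends, by 1.73, while Tert, the telomerase reverse transcriptase, changed by 0.65. Of 17 tested clock genes 3 fell, Ciart, detected on 2 of 4 OKM arrays, by 2.12. The core factors Clock and Arntl changed by -0.67 and -0.15 and were not called.

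Across the autosomes and X, 12.5% to 20.2% of genes were higher in OKM and 11.8% to 21.5% lower, the largest share of falls being on X. For 2 genes, Ahnak and Srprb, kept probes of the same gene were called in opposite directions, so that neither is given a direction.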
